A study of Homo sapiens with 18 samples.

Results

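The DDX and DHX genes encode RNA helicases, and they were taken here as all protein-coding genes whose GENCODE release 44 symbol begins with DDX or DHX and a digit. Of 54 such genes, 45 had at least 1 intron in the splicing table. Together they held 845 of 233650 introns, and 494 introns in 178 clusters, of 152722 tested in all, had a mean percent spliced in (PSI) from 1% to 99% and were tested. PSI is the share of 1 intron among the spliced reads of its cluster, a set of introns that share splice sites. DDX21, DDX25, DDX28, DDX4, DDX43, DDX53, DHX16, DHX58 and DDX3Y contributed no intron and are not described further.

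RNA was sequenced from SHEP.tet21n, 1 engineered neuroblastoma line whose MYCN transgene is switched off by doxycycline (Dox) at 2 µg/mL and stays on with the DMSO vehicle. Cells of either MYCN status received a control siRNA or 1 of 2 siRNAs against SNRPD3, a core Sm protein of the spliceosomal small nuclear ribonucleoproteins. This gave 6 groups of 3 libraries: MYCN-/SNRPD3+ (Dox and control siRNA, the wildtype), MYCN-/SNRPD3- with siRNA #1 or #2 (Dox and SNRPD3 siRNA), MYCN+/SNRPD3+ (vehicle and control siRNA), and MYCN+/SNRPD3- with siRNA #1 or #2 (vehicle and SNRPD3 siRNA). Dox itself separates the MYCN groups and cannot be told apart from MYCN, and p-values measure the spread between these libraries. The study describes the replicates behind its splicing results as independent, and the labels give no culture or date for them. Reads per intron were not given, so the depth behind each PSI is unknown, and PSI describes which splice sites were joined, not how much RNA a gene made.

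RNA helicases of these families use ATP to unwind RNA duplexes or strip proteins from RNA. Several drive the rearrangements of the spliceosome between its assembly, catalysis and release, others act on pre-ribosomal RNA in the nucleolus, on export and translation of mRNA, in mitochondria, or on double-stranded RNA in antiviral defence. Their own transcripts are spliced too, and a number of them carry exons with stop codons that send the mRNA to nonsense-mediated decay.

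The splice sites on which the results turned are shown first, read from hg38 on the strand of the gene, with the first 2 intron bases (donors) or the last 2 intron bases (acceptors) in capitals. In DDX10, whose product acts in small ribosomal subunit assembly, the main event joined an annotated alternative first exon of 190 bases, which lies inside the last intron of the full-length transcript, to exon 18. The exon and the first 10 bases of its intron, chr11:108929519-108929718, plus strand, and the competing donor of exon 17, the shared acceptor of exon 18 and an unannotated donor further upstream read as follows.
DDX10 alternative first exon: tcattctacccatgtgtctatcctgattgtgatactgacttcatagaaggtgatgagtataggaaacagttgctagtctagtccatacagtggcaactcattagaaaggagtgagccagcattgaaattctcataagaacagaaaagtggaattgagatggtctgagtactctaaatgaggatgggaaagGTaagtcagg
DDX10 exon 17 donor, chr11:108918009-108918028: ataaaataagGTatgttttt
DDX10 exon 18 acceptor, chr11:108940226-108940250: tttggatttcttctcaccAGtgata
DDX10 unannotated donor, chr11:108873008-108873027: aataaaatctGTgagtgttt

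DHX9 encodes RNA helicase A, which unwinds double-stranded RNA, and its 2 competing donors end its canonical first exon and a second annotated first exon further downstream. In DDX60, an interferon-induced helicase on the minus strand, the donor of exon 22 stood 4 bases upstream of another GT that was also used. DDX41, a helicase of the catalytic spliceosome on the minus strand, joined exon 10 to exon 9, to a downstream donor that lengthens exon 9 in an annotated decay transcript, or to an exon in the intron between them that is annotated as a first exon. DDX46, the human counterpart of yeast Prp5 that acts on the U2 snRNP, carries a 117-base exon between exons 12 and 13 whose first in-frame stop codon, TAA, begins at base 15, and the stretch from the start of that exon through the stop is shown with the stop in capitals.
DHX9 exon 1 donor, chr1:182839447-182839466: gcgaaggctgGTaagggaga
DHX9 second first-exon donor, chr1:182839926-182839945: gtatagcgagGTaaggcgtc
DDX60 exon 22 donor, chr4:168267572-168267591: aacagatcatGTaggtaata
DDX60 downstream donor, chr4:168267568-168267587: gatcatgtagGTaatatttt
DDX41 exon 9 donor, chr5:177514691-177514710: ccatccgacaGTgagtgctg
DDX41 internal first-exon donor, chr5:177514584-177514603: gagggctgctGTgagtgcga
DDX46 117-base exon to its stop, chr5:134790106-134790122: gtgatgctgtcagaTAA

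Of the 494 tested introns, 492 began with GT and ended with AG, 1 was GC-AG and 1 TT-AG. Annotated introns made up 378 of them (76.5%, against 67.6% of all tested introns). Helicase introns were taken only with a splice site at an annotated exon boundary of these genes, which by itself favours annotated introns. Their lengths ran from 64 to 65663 bases with a median of 1720. The median SD between libraries of a group was 2.07 percentage points for the helicase introns and 3.11 for all tested introns. A repeated value among the 18 libraries occurred in 8.7% of them and 17.3% of all tested introns. Splice sites shared with another gene affected 41 introns, among them those of DDX19A and DDX19B, DDX39B, DDX46, DDX47 and DDX60. DDX11 has near-identical copies in the genome to which its reads could be assigned, so its values are uncertain.

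To ask which helicase introns differed with MYCN whatever the SNRPD3 status, the 9 libraries with MYCN expressed were compared with the 9 with MYCN repressed. In 5 genes, DDX10, DHX9, DDX46, DDX60 and DDX41, 7 introns passed an adjusted p of 0.05 (limma on the log2 odds of PSI, Benjamini-Hochberg over all tested introns). That is 1.42% of the helicase introns, beside 1.23% of all tested introns called in the same comparison, so the share of calls was near the background. PSI was higher with MYCN at 4 of them and lower at 3, and 58 introns (11.7%, as among all introns) had an unadjusted p under 0.05.

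**Figure D1:**
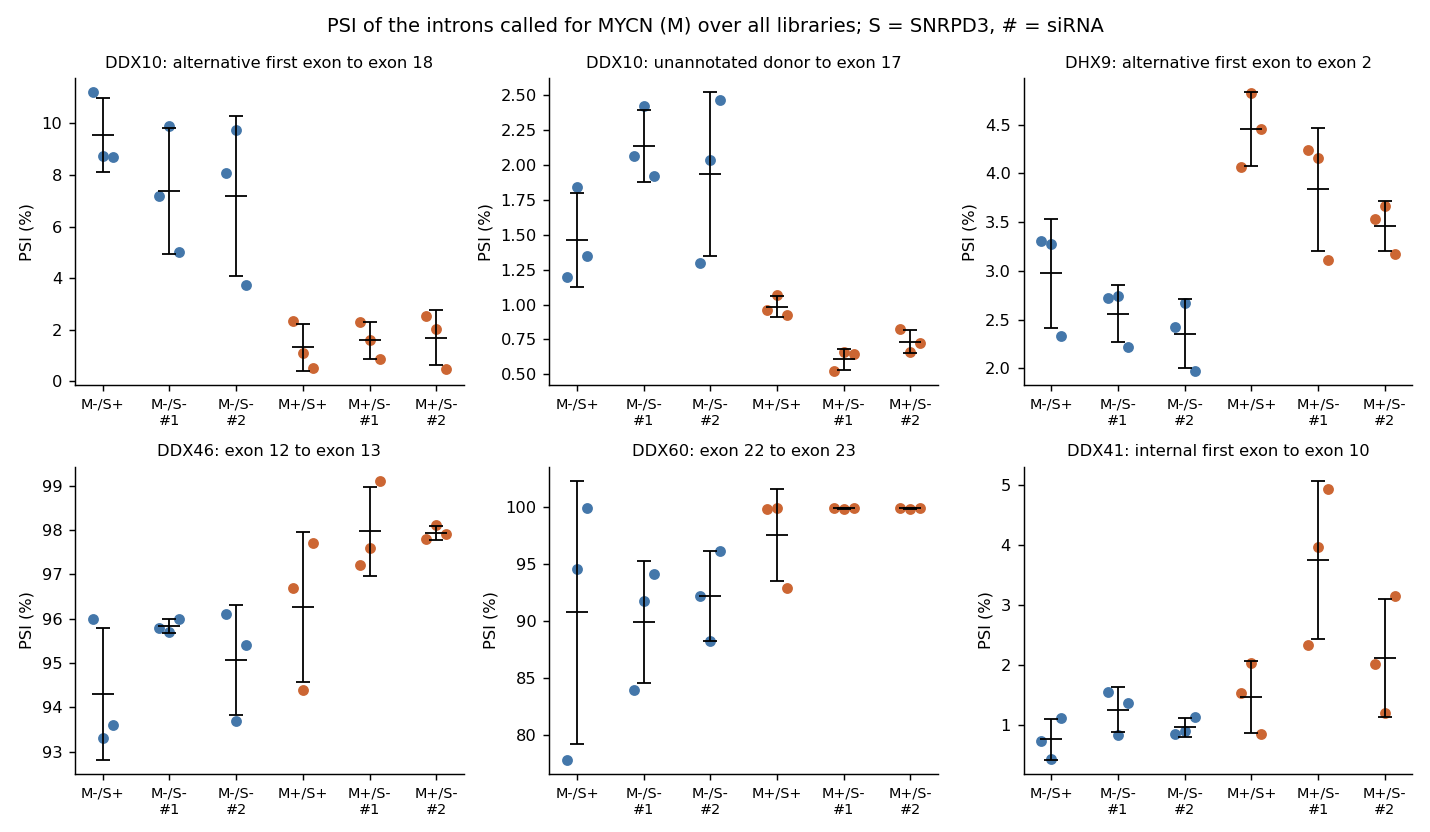
PSI in percent (y axes, which differ between panels and do not start at 0) in each library of the 6 groups for 6 of the 7 introns called for MYCN; the remaining one, DHX9 exon 1 to exon 2, is the complement of the DHX9 panel. Points are libraries, the black dash is the group mean and the bars the SD of 3 libraries. The DDX10 intron from the alternative first exon lies between 3.74% and 11.2% with MYCN repressed and between 0.49% and 2.54% with MYCN expressed.

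The intron that joins the alternative first exon of DDX10 to exon 18 (chr11:108929709-108940245, annotated in a transcript without a defined coding sequence) had the smallest p of all helicase introns. Its PSI was 11.2%, 8.72% and 8.7% in wildtype cells, 7.17%, 9.91% and 5.02% with siRNA #1 and 8.08%, 9.74% and 3.74% with siRNA #2, all with MYCN repressed. With MYCN expressed it was 2.32%, 1.09% and 0.526% with control siRNA, 2.29%, 1.6% and 0.866% with siRNA #1, and 2.54%, 2.04% and 0.49% with siRNA #2. Every library with MYCN expressed was below every library with MYCN repressed. How often the libraries separate in this way over all introns was not counted. The mean fell from 8.04% ± 2.39 to 1.53% ± 0.807 (SD, 9 libraries each), a log2 odds difference of -1.95 ± 0.24 (SE; adjusted p = 0.00175, limma). The interaction, by how much the knockdown difference was larger in MYCN+ than in MYCN- cells, was 0.64 ± 0.52 (adjusted p = 1.0, limma).

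Counted among the joins into exon 18 alone, the alternative first exon took 16.5% ± 2.5 in wildtype cells, 12.6% ± 3.9 with siRNA #1 and 12.2% ± 4.9 with siRNA #2 (SD, 3 libraries each). With MYCN expressed these shares were 2.45% ± 1.7 with control siRNA, 2.86% ± 1.3 with siRNA #1 and 2.95% ± 1.8 with siRNA #2. Averaged over the 9 libraries of each status, the share was 5.01 times higher with MYCN repressed, and it is a ratio to the full-length transcript, so more starts at the internal exon and fewer full-length transcripts cannot be told apart.

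A second DDX10 intron, from an unannotated donor in the intron between exons 16 and 17 to exon 17 (chr11:108873018-108917872), also fell with MYCN. It ranged from 1.2% to 2.46% with MYCN repressed (median 1.92%) and from 0.524% to 1.07% with MYCN expressed (median 0.725%). The 2 ranges did not overlap, and the share of all introns with such ranges was not counted. The log2 odds difference was -0.68 ± 0.09 (adjusted p = 0.00252, limma). With control siRNA alone it was 0.476 points lower with MYCN (unadjusted p = 0.0686), while the means went from 2.13% to 0.61% with siRNA #1 and from 1.93% to 0.735% with siRNA #2. The interaction was -0.56 ± 0.19 (unadjusted p = 0.0118, adjusted p = 1.0, limma). The regular introns of the cluster, exon 16 to 17 and exon 17 to 18, had PSI 3.98 and 3.49 points higher with MYCN and were not called (adjusted p = 0.164 and 0.211, limma). The fifth intron, an unannotated join of exons 16 and 18 (chr11:108852210-108940245), had a mean PSI under the 1% filter and was not tested in the main fit. The fit without that filter did not call it. It was between 0.013% and 0.0171% in the 6 control libraries, between 0.653% and 1.62% in 9 of the 12 knocked-down ones, and between 0.0136% and 0.0163% in the other 3, all of siRNA #2. The depth behind values so near 0 is unknown, and how often such a split occurs over all introns was not counted. PSI sums to 100% within a cluster, so the differences at these introns are tied to each other.

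DHX9 differed at its 5′ end. The PSI of the join from the second annotated first exon to exon 2 (chr1:182839936-182842544) was 3.31%, 3.28% and 2.33% in wildtype cells, 2.72%, 2.74% and 2.22% with siRNA #1, and 2.42%, 2.67% and 1.97% with siRNA #2. It was 4.07%, 4.83% and 4.46% in MYCN+/SNRPD3+ cells, 4.24%, 4.16% and 3.11% with siRNA #1, and 3.53%, 3.67% and 3.17% with siRNA #2. The groups by MYCN status overlapped only between 3.11% and 3.31%. The difference was 1.29 points, a log2 odds difference of 0.46 ± 0.09 (adjusted p = 0.023, limma). The call was lost in 3 of 7 other settings, a minimum difference, PSI itself and a variance trend with a robust fit (adjusted p up to 0.102, limma). The join from exon 1 (chr1:182839457-182842544), the only other intron of the cluster, fell by 1.29 points with the same p, so the 2 calls are 1 event. In the comparison of SNRPD3 knockdown over all libraries, the second first exon was 0.66 points lower (unadjusted p = 0.031, adjusted p = 0.571, limma), which was not called.

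The other 3 calls lay close to the threshold, and the groups overlapped at each. With 1 library left out in turn, DDX60 was called in 2 of 18 fits and DDX46 and DDX41 in 3 of 18 each. The DDX46 intron that leaves out the 117-base exon (chr5:134788592-134790469, exon 12 to 13) ran from 93.3% to 96.1% with MYCN repressed (median 95.7%) and from 94.4% to 99.1% with MYCN expressed (median 97.7%). It was 2.31 points higher with MYCN (log2 odds 0.80 ± 0.17, adjusted p = 0.0441, limma). The joins into and out of the 117-base exon were 0.77 and 1.54 points lower, with adjusted p = 0.0972 and 0.0734 (limma). With knockdown over all libraries the exon 12 to 13 intron was 1.45 points higher (unadjusted p = 0.0256, adjusted p = 0.545, limma), which was not called. The share of transcripts that skipped the exon was 97.0% ± 0.78 in wildtype and 98.1% ± 0.88 in MYCN+/SNRPD3+ cells (SD, 3 libraries each), and between 97.1% and 99.5% over all 9 libraries with MYCN expressed.

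In DDX41, the join from the internal exon to exon 10 (chr5:177513848-177514593) ran from 0.444% to 1.56% with MYCN repressed and from 0.848% to 4.93% with MYCN expressed. It was 2.33%, 3.97% and 4.93% in the MYCN+/SNRPD3- libraries with siRNA #1, against 2.02%, 1.2% and 3.15% with siRNA #2 and 1.54%, 2.04% and 0.848% with control siRNA, so the 2 highest values came from siRNA #1. The log2 odds difference for MYCN was 0.74 ± 0.16 (adjusted p = 0.0487, limma). The regular join of exons 9 and 10 was 3.13 points lower with MYCN, to between 89.0% and 97.1%, and was not called (adjusted p = 0.167, limma). The join from the lengthened exon 9 (chr5:177513848-177514553), with a mean PSI of 2.67%, was 1.23 points higher with MYCN and was not called either (adjusted p = 0.521, limma). An unannotated intron from exon 9 (chr5:177514624-177514700) ends inside the internal exon. Its PSI was 1.17%, 1.34% and 1.04% in the MYCN+/SNRPD3- libraries with siRNA #1 and from 0.0101% to 0.936% in all others, so transcripts that start at the internal exon and transcripts that splice exon 9 to it cannot be told apart in the join to exon 10.

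In DDX60, the join of exons 22 and 23 by the upstream donor (chr4:168262788-168267581) was above 99% in 8 of 9 libraries with MYCN expressed and in 1 of 9 with MYCN repressed, where it went down to 77.8%. The difference was 8.16 points (log2 odds 2.58 ± 0.57, adjusted p = 0.0482, limma). The donor 4 bases downstream, which is not annotated, ran from 0.0713% to 16.1% with MYCN repressed and from 0.0808% to 7.04% with MYCN expressed. In the library at 77.8%, MYCN-/SNRPD3+ replicate 1, that donor was at 6.79%, and an intron of an annotated decay transcript from exon 22 (chr4:168265615-168267581) was at 15.4%, which ran from 0.033% to 3.83% in the other 17. These values are either near 0 or above several percent, and 2 libraries shared the same value. DDX60L is its neighbour and paralog, and whether reads of one were assigned to the other was not tested.

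The letters CACGTG, the canonical E-box to which MYC proteins bind, were searched in the 300 bases from 250 before to 50 after each of the 3 alternative starts. The palindrome reads the same on both strands. It was in none of the windows of DDX10, DHX9 and DDX41, nor in the RefSeq promoters of these genes. It was in 7.26% of the 35116 promoters of the same length from RefSeq, and in 8 of the 41 DDX and DHX promoters among them (19.5%). The wider form CANNTG, which includes CACGTG and also reads as itself on the other strand, occurred 1 time in the window of the DDX10 alternative start, 3 times in that of the internal DDX41 exon and 1 time in the RefSeq promoter of DDX41, and in none of the other 3. It was in 68.7% of all promoters and in 68.3% of the DDX and DHX promoters.

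SNRPD3 knockdown over all libraries, the 12 knocked-down against the 6 control libraries, called 0 of the 494 helicase introns, beside 0.0242% of all tested introns (37 of 152722). At an unadjusted p under 0.05 there were 45 helicase introns (9.11%, against 7.8% of all), and the smallest adjusted p was 0.248, in DDX47. The median absolute difference of PSI was 0.785 points for the helicases and 1.1 points for all tested introns. With the variance fitted with a trend and robustly in limma the count of calls was again 0.

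In the pairwise comparisons no helicase intron was called in the fit without a replicate block. For MYCN with control siRNA, 0 were called beside 0.0543% of all introns, with 21 (4.25%) at an unadjusted p under 0.05, against 6.19% of all introns. Knockdown with MYCN repressed called 0 with siRNA #1 and 0 with siRNA #2, beside 0.0105% and 0.0151% of all introns, with 22 and 12 helicase introns at an unadjusted p under 0.05 (4.45% and 2.43%, against 4.54% and 4.69% of all). Knockdown with MYCN expressed called 0 with either siRNA, beside 0.0144% (siRNA #1) and 0.0164% (siRNA #2), with 39 and 21 at that level (7.89% and 4.25%, against 7.25% and 6.17% of all). Cells with MYCN and SNRPD3 siRNA against wildtype cells gave 48 and 53 introns at an unadjusted p under 0.05 (9.72% and 10.7%, against 10.4% and 9.19% of all) and 0 calls with either siRNA, beside 0.278% and 0.110% of all introns. In both of these comparisons the smallest p fell on the DDX10 alternative first exon, with adjusted p = 0.0578 and 0.0803 (limma). With the replicate number as a block this intron was called in both (adjusted p = 0.00872 and 0.0119) and for MYCN with control siRNA, where the adjusted p went from 0.094 to 0.00618. The interaction called 0 beside 0.0177% of all introns, with 10 helicase introns (2.02%) at an unadjusted p under 0.05, against 3.98% of all.

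Among the spliceosomal helicases, 112 introns of 11 genes were tested. For MYCN 2 were called, in DDX46 and DDX41, both higher, and 14 had an unadjusted p under 0.05, beside 1.23% called and 11.7% at that level over all introns. For knockdown 0 were called and 10 had an unadjusted p under 0.05, beside 0.0242% and 7.8% over all introns. The values below are the intron with the smallest p for knockdown in each of these genes, and none passed adjustment (adjusted p from 0.249 to 0.993, limma).

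The largest of those differences lay in DDX39B, the export and splicing helicase UAP56, at an intron from exon 1 (chr6:31541328-31541949). It went from 0.613% to 98.9% between control libraries and from 0.481% to 63.2% between knocked-down ones, so the 28.3-point lower mean sat within a spread over nearly the whole scale. DHX8, which releases the spliced mRNA, had its exon 22 to 23 intron at 85.9% to 89.8% in control and 83.8% to 88.0% in knocked-down libraries, 2.06 points lower (unadjusted p = 0.0168). DHX38, the counterpart of Prp16 that acts between the catalytic steps, had its exon 19 to 20 intron 2.71 points lower, at 88.9% to 95.3% in control and 84.3% to 92.4% in knocked-down libraries. DDX42, which associates with SF3B, had the join from an annotated 71-base alternative exon to exon 2 1.36 points lower, from between 7.82% and 8.73% to between 5.18% and 8.65%.

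DHX35, found in the catalytic spliceosome, had its exon 4 to 5 intron at 91.2%, 88.7% and 89.6% in wildtype cells and at 85.1%, 75.4% and 75.0% with siRNA #1 with MYCN repressed, but at 90.4%, 85.4% and 82.4% with siRNA #2. With MYCN expressed it was 87.8%, 86.6% and 86.0% with control siRNA, 89.2%, 89.6% and 86.1% with siRNA #1 and 84.9%, 86.9% and 87.1% with siRNA #2. The 2 lowest values, 75.4% and 75.0%, were of siRNA #1 with MYCN repressed, and the other 16 libraries lay between 82.4% and 91.2%. DDX5, DDX17, DDX23 and DHX15 differed by under 0.5 points at their introns of smallest p, and DDX5, a coactivator and splicing helicase, held its exon 11 to 12 intron between 35.0% and 38.2% in all 18 libraries. In DDX46 the smallest p for knockdown fell on an unannotated intron (chr5:134846864-134854897) with a mean 4.57 points higher, which ran from 2.48% to 8.48% in control and from 5.27% to 15.2% in knocked-down libraries (unadjusted p = 0.000987, adjusted p = 0.249, limma). That intron ends at an acceptor of a DDX46 decay transcript that is also an acceptor of C5orf24, the next gene, so its gene of origin is uncertain. Another unannotated intron into this acceptor (chr5:134846213-134854897), with a mean PSI of 66.7%, was 5.21 points lower with knockdown (unadjusted p = 0.0981, limma). It was 8.22 points lower with MYCN (unadjusted p = 0.0149, adjusted p = 0.252, limma).

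The ribosome biogenesis helicases had 126 tested introns in 14 genes. The 2 calls for MYCN were those of DDX10, both lower, and 17 introns had an unadjusted p under 0.05, beside 1.23% called and 11.7% at that level over all introns. For knockdown 0 were called and 15 were at that level, beside 0.0242% and 7.8% over all introns. In DDX51, which acts on large subunit rRNA, the exon 2 to 3 intron (chr12:132142879-132143694) had a mean 10.1 points lower with MYCN, from 66.2% to 93.0% without it and from 55.6% to 85.7% with it (adjusted p = 0.185, limma). An 82-base intron of DDX51 into exon 9 (chr12:132141021-132141102), annotated in a retained-intron transcript, was 7.42 points higher with knockdown, at 9.32% to 17.4% in control and 13.6% to 32.4% in knocked-down libraries (unadjusted p = 0.0196). The exon 15 to 16 intron of DDX31 was 3.77 points lower with knockdown (unadjusted p = 0.0169), and the groups overlapped between 90.3% and 92.9%. DDX18 at exons 7 to 8 and DDX55 at a retained-intron transcript were 2.23 and 1.38 points lower with MYCN, with adjusted p = 0.231 and 0.246 (limma).

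The interaction was largest, by the rule used for naming introns, in DDX60L and DDX24. The DDX60L exon 30 to 31 intron (chr4:168379831-168384611) was 70.4%, 63.2% and 63.6% in MYCN+/SNRPD3+ cells and from 41.7% to 58.8% in the other 15 libraries, an interaction of -15.0 points (unadjusted p = 0.0113, adjusted p = 1.0, limma). This intron was picked for the size of its interaction, and how often a group separates in this way over all introns was not counted. The DDX24 intron from exon 2 to 3 (chr14:94062622-94079024) was between 12.5% and 13.9% in the MYCN+/SNRPD3- libraries with siRNA #1 and between 0.217% and 0.454% with siRNA #1 and MYCN repressed, but spread from 0.448% to 24.8% in wildtype cells and from 0.373% to 22.1% with siRNA #2 and MYCN repressed, and its interaction of 11.7 points had an adjusted p of 1.0 (limma).

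DDX60, DDX60L and DHX9, which act on double-stranded RNA, had 71 tested introns and the largest typical differences of the role groups. The median absolute difference was 1.4 points for knockdown and 1.69 points for MYCN, beside 1.1 and 1.21 points over all tested introns. By gene it was 1.27 and 3.98 points in DDX60, 1.95 and 1.36 in DDX60L, and 0.662 and 0.912 in DHX9. For MYCN 2 introns were called higher and 1 lower, and 12 had an unadjusted p under 0.05, beside 1.23% and 11.7% over all introns. For knockdown 0 were called and 10 were at that level, beside 0.0242% and 7.8% over all introns. In DDX60L, the exon 33 to 34 intron was 5.03 points higher with knockdown (unadjusted p = 0.0228) and the exon 4 to 5 intron was 8.54 points lower with MYCN (unadjusted p = 0.0427), and neither was called.

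The 8 genes of export, translation and decay had 68 tested introns, with 0 calls for knockdown and for MYCN, and 1 and 6 introns at an unadjusted p under 0.05. Over all introns 0.0242% and 1.23% were called, and 7.8% and 11.7% were at that level. The 1 knockdown intron was DHX34 exon 1 to 2 (chr19:47349353-47352753), in a gene of nonsense-mediated decay. It was 87.9%, 91.6% and 89.7% in wildtype and 90.6%, 93.8% and 87.6% in MYCN+/SNRPD3+ cells, and from 75.2% to 89.4% in the 12 knocked-down libraries. The mean was 5.7 points lower with knockdown (log2 odds -0.69 ± 0.21, unadjusted p = 0.00564, adjusted p = 0.369, limma), and the groups overlapped.

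DHX30, the mitochondrial helicase, had 15 tested introns with 2 at an unadjusted p under 0.05 in each of the 2 comparisons and 0 calls. The 8 remaining helicases, DDX1, DDX11, DDX20, DDX50, DDX59, DHX32, DHX40 and DHX57, had 102 tested introns, with 7 at an unadjusted p under 0.05 for knockdown, 7 for MYCN and 0 calls. Beside these counts and those of DHX30, 7.8% of all introns were at that level for knockdown and 11.7% for MYCN. Of all introns 0.0242% and 1.23% were called. DDX11, a DNA helicase of sister chromatid cohesion, had its exon 22 to 23 intron 2.72 points lower with knockdown (unadjusted p = 0.00198, adjusted p = 0.291, limma), and the range over the 12 knocked-down libraries, 89.2% to 95.3%, overlapped the control range of 94.0% to 97.6%. Its exon 7 to 8 intron was 3.19 points higher with MYCN (unadjusted p = 0.0317, adjusted p = 0.357, limma).

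Whether an effect seen with MYCN repressed also appeared with MYCN expressed was described with libraries that the 2 estimates do not share. The knockdown difference, averaged over both siRNAs, had the same sign in the 2 MYCN states at 288 of 494 helicase introns (58.3%), beside 55.2% of all tested introns. The MYCN difference had the same sign with control siRNA and with SNRPD3 siRNA at 290 of 494 (58.7%), beside 57.8% of all. Across helicase introns the Pearson r was 0.319 for knockdown and 0.317 for MYCN. Over all tested introns it was 0.0405 and 0.105. A few introns with large differences can set r. For knockdown over all libraries, a DDX39B intron differed by -28.3 points, beside a median absolute difference of 0.785 points over helicase introns. The r without such introns was not computed. Whether effects were shared more among helicase introns than among all introns therefore cannot be read from r. Introns of 1 cluster are tied and not independent, so no p is given.

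Exon skipping gave a second view of the same genes. The skipping share of an exon was the PSI of the skipping intron divided by the sum of it and the mean of the 2 inclusion introns. All 3 introns of the event were in the splicing table for 81 internal exons of canonical helicase transcripts, with no filter on PSI. The median share over these exons was 1.31% ± 0.053 in wildtype cells, 1.87% ± 0.24 with siRNA #1 and 1.49% ± 0.22 with siRNA #2 (SD, 3 libraries each). With MYCN expressed it was 1.54% ± 0.043 with control siRNA, 2.19% ± 0.59 with siRNA #1 and 2.08% ± 0.42 with siRNA #2. The library ranges with control siRNA, 1.25% to 1.35% and 1.49% to 1.56%, did not overlap between the MYCN states. Neither did those over the exons of all genes, 1.5% to 1.75% and 1.8% to 2.03%. The helicase ranges with siRNA #1 overlapped, and those with siRNA #2 met at 1.68% (1.25% to 1.68% and 1.68% to 2.51%).

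A difference of the same direction was present over the exons of all genes. Over 23365 exons of the same kind the median was 1.63% ± 0.13 in wildtype cells, 1.9% ± 0.11 in MYCN+/SNRPD3+ cells, and 2.82% ± 0.77 and 2.65% ± 0.68 with both changes. The mean share was higher with knockdown at 56 of the 81 helicase exons with MYCN repressed and at 68 with MYCN expressed (69.1% and 84.0%, beside 64.7% and 74.0% of all exons). With MYCN it was higher at 63 of 81 (77.8%, beside 72.8%). No single exon was tested by itself in this count, and the part of depth, which is unknown, was not tested. Over a different set, the 74 combinations of 3 annotated introns in these genes, which include exons outside the canonical transcript, the mean share hardly moved: 34.8% ± 1.1 in wildtype, 35.6% ± 1.1 in MYCN+/SNRPD3+ cells, and 35.6% ± 0.61 and 35.9% ± 1.3 with both changes. All genes went from 37.5% ± 0.21 to 37.8% ± 0.49, 40.5% ± 1.6 and 39.8% ± 1.1 by that measure.

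In 36 of the 81 exons all 3 introns had a mean PSI from 1% to 99% over the 18 libraries. In 12 of these the skipping intron averaged under 1% in wildtype cells, so they were kept through groups with more skipping. The 3 exons given next are among the 36 and were chosen after their values were seen. A 78-base exon of DHX35 was skipped at 17.3% ± 5.8 in wildtype cells, 21.2% ± 4.8 and 25.6% ± 6.0 with the siRNAs, 21.7% ± 2.3 with MYCN, and 25.8% ± 11 and 26.8% ± 1.1 with both. DDX42 skipped a 37-base exon, whose length is no multiple of 3, at 4.77% ± 0.93 in wildtype cells. Its share was 6.61% ± 2.8 and 7.02% ± 1.1 with the siRNAs, 7.62% ± 2.8 with MYCN, and 11.2% ± 4.1 and 12.2% ± 6.1 with both changes. DDX47, a nucleolar helicase, skipped a 147-base exon at 1.79% ± 0.47 in wildtype and at 1.79% ± 0.87 in MYCN+/SNRPD3+ cells. That exon was skipped at 3.07% ± 0.96 and 2.88% ± 0.67 with the siRNAs and MYCN repressed. With both changes it was skipped at 5.51% ± 2.4 and 4.59% ± 1.3. Over the libraries of each MYCN status the ranges overlapped at all 3 exons, for DDX42 from 3.8% to 9.71% without and 5.84% to 19.1% with MYCN.

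Exons that carry a stop or lie outside the canonical transcript were also measured. Of 54 annotated exons in 26 helicase genes with all 3 introns tested, 18 lay outside the canonical transcript and 9 of those held an in-frame stop. Skipping of the stop-carrying exons ran from 62.6% for a 75-base exon of DHX34 and 71.0% for a 29-base exon of DHX30 to 98.7% for a 49-base exon of DDX20, as means over all libraries. The DHX34 exon had a skipping share of 63.6% ± 5.1 in wildtype cells, 67.5% ± 12 with MYCN, and 58.5% ± 9.8 and 66.9% ± 6.1 with both changes, which is within the spread of the replicates. The 137-base stop exon of DHX9 had a skipping share of 92.8% ± 0.94 in wildtype and 93.4% ± 0.92 in MYCN+/SNRPD3+ cells.

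Introns that are not annotated held 3.02% ± 0.12 of helicase PSI in wildtype cells and 3.03% ± 0.11 with MYCN, beside 11.2% and 11.4% over all introns. The way helicase introns were taken lowers their share: introns with neither splice site annotated count only over all introns. With both changes the helicase share was 3.2% ± 0.29 and 3.18% ± 0.32, which is within the spread of the replicates.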

How the data were processed

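The authors aligned paired reads to hg38 with STAR (2.5.0a in the submitters' processing notes, which also name SAMtools 1.3.1), counted reads across introns and clustered introns with leafcutter. PSI was deposited by the authors as a fraction for each intron and library, never exactly 0 or 1, and is printed here as percent. A table of the authors' own comparisons, with an adjusted p per cluster and a delta PSI per intron for pairs of groups, was not used. Each of the 18 columns was matched to a library by its name in the labels, and 0 columns were left unmatched.

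Introns were placed on GENCODE release 44, while the study used an earlier release. Log2((PSI + 0.01)/(1 - PSI + 0.01)) of introns with mean PSI from 0.01 to 0.99 was fitted with limma (3.58.1 in R 4.3.3, lmFit and eBayes), all 6 groups in 1 fit, with Benjamini-Hochberg adjustment over all tested introns within each of 10 comparisons and a threshold of 0.05. Named introns were those called with the rest of their cluster; up to 12 introns for each main effect and 6 for the interaction, 1 per gene, by difference of mean PSI among unadjusted p under 0.05, mean PSI from 0.05 to 0.95 and 18 different values; and, for each spliceosomal helicase, the intron of smallest p for knockdown. Events described as exons, stop codons or sequences were read off the annotation and hg38. Members, role lists and these rules were chosen with earlier results of these data known. In simulated data for knockdown over all libraries, on 152722 introns with 200 shifted, shifts of 1, 2 and 4 log2 odds were recovered at 26.5%, 55.5% and 78.5%. False calls among the other introns numbered 4, 9 and 11. The shift was equal in every SNRPD3- group and fell on introns drawn from all tested ones. These rates are therefore not those of helicase introns. Within-group correlations of log odds between replicates were 0.847 to 0.871. Depth is unknown, so PSI carries no counting interval and the replicate spread is the only error. Alternatives tried were the offset, PSI itself, the filter, a minimum difference, the replicate block, the variance model, fits of only the groups compared, and leaving out each library. Python 3.11.15, pandas 2.3.3, numpy 2.4.6, pysam 0.24.0 and matplotlib 3.10.9 were used.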

Additional observations from a re-analysis of the deposited data

How the results depend on the processing

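The 7 calls for MYCN over all libraries became 1 with PSI itself in place of log odds, 2 with a variance trend and robust fit, 2 with a minimum difference of 0.05, 4 without a filter, 4 with an offset of 0.05, 6 with an offset of 0.001 and 0 with a mean PSI from 0.05 to 0.95, a range in which no called intron lies. The DDX10 intron from the alternative first exon was called under all 7 alternatives that tested it and without any 1 library (adjusted p from 0.00152 to 0.0055, limma). The other DDX10 intron was called without any 1 library and lost with PSI itself and the minimum difference. The DHX9 pair was called without 17 of 18 (adjusted p up to 0.0525) and lost with these 2 settings and the variance trend, while DDX60, DDX46 and DDX41 were called without only 2, 3 and 3 of 18 libraries. Leaving out 1 library gave 4 to 7 calls for MYCN over all libraries (4 without any of MYCN+/SNRPD3+ replicates 1 and 2, MYCN+/SNRPD3- siRNA #1 replicates 2 and 3 and siRNA #2 replicates 1 and 3, MYCN-/SNRPD3- siRNA #1 replicates 1, 2 and 3 and siRNA #2 replicates 1 and 2), 0 to 1 for MYCN with control siRNA, and 0 to 2 (siRNA #1) and 0 to 1 (siRNA #2) for both changes. Without MYCN-/SNRPD3+ replicate 2, the DDX46 and C5orf24 intron at chr5:134846864-134854897 was called for both changes (adjusted p = 0.042 and 0.0308). Fits of only the groups compared called 1 intron for MYCN with control siRNA (DDX60) and 4 for both changes with siRNA #1 (DHX37 and DDX39B), and an offset of 0.05 called 1 there (DDX10). Apart from these and the replicate block, given next, the count was 0 in every comparison other than MYCN over all libraries. An exon skipping share taken over all 81 exons was chosen after seeing the data. With the filter, 72.2%, 86.1% and 83.3% of 36 helicase exons were higher with knockdown (MYCN repressed, then expressed) and with MYCN. Over all genes these shares were 66.4%, 75.0% and 73.1% of 10804 exons. In 12 of the 36 the skipping intron averaged under 1% in wildtype cells. The filter thus favours higher skipping, and these counts are no check on the 81 exons. Of 789 values of single introns under alternatives, 0 changed direction, 721 kept their side of the threshold and 68 lost the call. Unknown depth limits every PSI, most of all those near 0 or with repeated values. The cause of these changes was not tested. The shares called over all introns under each alternative, the replicate block among them, are not given here. Whether the helicases lost or gained calls differently from the background therefore cannot be read from these counts.

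Whether replicate numbers shared between groups pair the samples is not settled. Deviations from the group means correlated at 0.00615 on average over 45 same-numbered pairs (from -0.0509 to 0.0638), against -0.00307 otherwise. Yet 14 of 18 libraries correlated best with their own number. At the DDX10 intron from the alternative first exon, replicate 3 was the lowest in every group. A mean over all introns cannot exclude pairing, which the main fit left out. With the replicate block, MYCN over all libraries again gave 7 calls, without DDX60 (adjusted p = 0.0655) and DDX41 (0.0559) and with DDX59 and DDX42, and the DDX10 alternative first exon was called as the 1 intron in each of MYCN with control siRNA and both changes with siRNA #1 and #2 (adjusted p = 0.00618, 0.00872 and 0.0119). The block gave 0 calls in the other comparisons.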

Other observations

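RNA helicases outside the DDX and DHX families were measured beside them: 202 tested introns of 15 genes, among them the EIF4A, SKI2-like and UPF1-like genes. For MYCN over all libraries 3 introns were called, beside 1.23% of all tested introns, in MOV10, a UPF1-like helicase active against retroelements (-11.9 and 8.04 points, adjusted p = 0.00796 and 0.0368, limma), and in YTHDC2, a meiotic helicase that binds methylated RNA (4.96 points, adjusted p = 0.0427). Knockdown over all libraries called 0 of them, with 8 at an unadjusted p under 0.05, beside 0.0242% and 7.8% of all tested introns. The 1 further call was MOV10 with both changes and siRNA #1 (-18.8 points, adjusted p = 0.0325, limma), beside 0.278% of all tested introns.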
